A study of Mus musculus with 37 samples.

Results

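Creatine cycle genes were followed in brown adipose tissue (BAT) of the BXD mouse panel: the creatine kinases *Ckb*, *Ckm*, *Ckmt1* and *Ckmt2*, the enzymes of creatine synthesis *Gatm* and *Gamt*, the creatine transporter *Slc6a8* and the phosphatase *Alpl*. All 8 genes, among 24657 different gene names on the array, were found by symbol, with 10 of the 41155 probe sets, and where a gene had more than 1 probe set the one with the highest mean over the strains stood for it. A single array was available for each of 35 BXD strains and for the parents C57BL/6J and DBA/2J. BXD lines descend from a cross of these parents and were inbred afterwards, so each is homozygous for its own mosaic of the parental alleles, and no treatment other than the diet is listed. All mice were males fed a chow diet, killed at 29 weeks of age after an overnight fast, and each array holds RNA combined evenly from about 5 mice. An array is therefore a strain mean, and the spread between strains includes the error of a single array. Values are scores in rescaled units, since each array had been set to a mean of 8 and an SD of 2. Their log base is not given in the sources used here, so differences are given in these units and not as folds.

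Creatine kinases move phosphate between ATP and creatine, so that phosphocreatine can buffer and carry energy within a cell. *Ckm* encodes the cytosolic kinase of skeletal muscle and *Ckb* the cytosolic kinase of brain and many other tissues, while *Ckmt1* and *Ckmt2* encode the ubiquitous and the sarcomeric mitochondrial kinases. In thermogenic fat, creatine is also known for a futile cycle, in which phosphocreatine is made at the expense of ATP and its phosphate is then released as heat. CKB and the alkaline phosphatase encoded by *Alpl*, also called TNAP, have been placed in that cycle. Skeletal muscle lies next to the main depots of brown fat, and muscle is rich in the same kinases, so the question here was which members moved over strains with muscle transcripts and which with those of brown adipocytes.

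The promoters of 3 kinases are shown because these genes separated in the strain comparison below, with *Ckm* and *Ckmt2* on the side of muscle and *Ckb* apart from them. Each run covers 250 bases before and 50 bases after the gene's start in RefSeq on the mouse build GRCm38.p6, read 5′ to 3′ on the gene's strand. Capitals mark the E-box word CANNTG and the TATA word TATAAA, each on either strand. The *Ckm* window lies at chr7:19410844-19411143 on the plus strand, the *Ckmt2* window at chr13:91876836-91877135 on the minus strand and the *Ckb* window at chr12:111672289-111672588 on the minus strand.

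Ckm: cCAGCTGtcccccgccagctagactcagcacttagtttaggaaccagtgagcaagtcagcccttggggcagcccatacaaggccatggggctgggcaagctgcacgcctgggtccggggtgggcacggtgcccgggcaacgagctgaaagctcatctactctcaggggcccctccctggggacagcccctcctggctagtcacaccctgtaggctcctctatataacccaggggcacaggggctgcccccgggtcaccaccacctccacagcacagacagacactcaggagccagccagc

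Ckmt2: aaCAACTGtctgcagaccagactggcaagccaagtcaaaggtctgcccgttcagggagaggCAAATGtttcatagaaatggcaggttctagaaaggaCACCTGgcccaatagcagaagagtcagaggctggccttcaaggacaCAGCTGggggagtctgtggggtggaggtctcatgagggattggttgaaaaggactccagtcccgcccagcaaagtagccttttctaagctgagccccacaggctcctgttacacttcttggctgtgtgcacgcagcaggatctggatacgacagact

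Ckb: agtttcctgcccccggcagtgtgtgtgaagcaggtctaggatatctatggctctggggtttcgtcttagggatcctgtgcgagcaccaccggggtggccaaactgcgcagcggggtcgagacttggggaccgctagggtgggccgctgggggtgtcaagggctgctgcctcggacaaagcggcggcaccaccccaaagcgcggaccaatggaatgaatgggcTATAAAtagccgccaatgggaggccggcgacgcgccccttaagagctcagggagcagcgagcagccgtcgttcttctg

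E-boxes are the words bound by the myogenic factors of muscle and by other basic helix-loop-helix proteins. The *Ckmt2* window held 4 of them, the *Ckm* window 1 and the *Ckb* window 0. The exact word TATAAA stood once in the *Ckb* window and 0 times in the *Ckm* and *Ckmt2* windows. Variants of it, such as the letters tatataa in the *Ckm* window, were not searched for or marked. The word CANNTG occurred at least once in 72.3% of the 32851 promoter windows in the table, CAGCTG, which is a special case of it, in 16.3%, and TATAAA in 13.6%. CAGCTG stood once in both the *Ckm* and the *Ckmt2* window, but also once in 1 of the 2 windows of *Ckmt1* and of *Alpl*, and CANNTG stood once in the windows of *Gatm* and *Gamt*, none of which followed muscle below. The other *Alpl* window held 3 CANNTG words and 1 TATAAA, and the *Ckmt1* window with CAGCTG also held 1 TATAAA. The estrogen-related receptor word AAGGTCA, searched on both strands, was in 4.72% of all windows and in none of the 3 windows of *Ckm*, *Ckmt2* and *Ckb*. A promoter entry was found for 7 of the 8 members, *Slc6a8* being the exception. A match describes letters and not a bound site, and at 72.3% the E-box word is common in windows of this length.

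Detection was set against 1128 probe sets of olfactory receptors, whose median level was 6.00 units and whose 95th percentile, 7.94 units, is called the limit below. 7 of the 8 members had a mean above that percentile, beside 47.2% of all probe sets. *Ckmt1*, the ubiquitous mitochondrial kinase, was the exception: it lay between 7.22 in BXD90 and 7.80 in BXD87, with a median of 7.50, and was below the limit in all 35 strains. Its values were thus not separable from background, and its slopes below are given for completeness. The other members were above the limit in every strain, apart from *Ckmt2*, which dropped to 7.67 in BXD65. The fat label was borne out by the 8 brown adipocyte markers *Ucp1*, *Cidea*, *Dio2*, *Elovl3*, *Prdm16*, *Ebf2*, *Kcnk3* and *Otop1*, all of which were above the limit, *Ucp1* with a mean of 15.37 units. All 12 genes of a skeletal muscle list were above it too. Liver markers stood apart in 2 arrays, with a mean of 12.30 over the 10 listed genes in BXD70 and 10.50 in DBA/2J, against a median of 7.46 over the BXD strains. Some results that touch BXD70 are also given without it.

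*Ckm* and *Ckmt2* were the 2 members with the widest spread over strains. *Ckm* ranged from 10.80 in BXD65 over a median of 13.33 to 14.26 in BXD97, a range of 3.46 units that only 0.639% of all probe sets exceeded. *Ckmt2* ranged from 7.67 in BXD65 over a median of 10.76 to 12.15 in BXD97, a range of 4.48 units that 0.151% of all probe sets exceeded. Both genes thus had the same lowest strain and the same highest strain, and BXD95 and BXD85 were the next lowest for both. The other detected members spanned between 1.27 and 1.61 units, against a median range of 0.899 units for all probe sets, and *Ckmt1* spanned 0.577 units. With 1 array per strain these ranges were not tested.

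The muscle content of each array was summarized as the mean of *Acta1*, *Actn3*, *Myh1*, *Myh4*, *Mylpf*, *Myl1*, *Tnnt3*, *Tnni2*, *Tnnc2*, *Pvalb*, *Mybpc2* and *Cacna1s*. These are genes of skeletal muscle, most of them of fast fibres, and include no member. This muscle index ran from 9.75 units in BXD65 over a median of 12.24 to 13.23 in BXD97, and each of its genes correlated with the mean of the others at *r* between 0.756 for *Myl1* and 0.992 for *Tnni2*. Fewer muscle cells and less RNA per muscle cell cannot be told apart in such bulk samples.

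*Ckm* and *Ckmt2* followed the muscle index almost point by point, and no other member passed the test. In a limma fit over the 35 strains, *Ckm* rose by 1.01 units per unit of the index (SE 0.025, adjusted p = 7.21e-28), with Pearson's *r* = 0.992 (permutation p = 1e-05, the smallest that 100000 permutations can give) and Spearman's rho = 0.966 (permutation p = 1e-05). *Ckmt2* rose by 1.31 units per unit (SE 0.036, adjusted p = 1.32e-26), with *r* = 0.988 and rho = 0.950 (permutation p = 1e-05 for each). Without the 2 strains farthest from the median of the index, BXD65 and BXD95, *r* was 0.990 for *Ckm* and 0.982 for *Ckmt2*. The 2 called members compare with 1.84% of all probe sets called in the same fit, 1.52% rising and 0.316% falling. The muscle index accounted for 98.4% of the variance of *Ckm* between strains and for 97.6% of that of *Ckmt2*. Once it was regressed out, the SD of *Ckm* went from 0.826 to 0.108 units and that of *Ckmt2* from 1.08 to 0.170 units, and 95.8% and 57.8% of all probe sets then had a wider range than these genes. A second, dimmer *Ckm* probe set with a mean of 8.10 units correlated with the index at *r* = 0.891 and with the main probe set at *r* = 0.879.

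The 6 other members had slopes on the muscle index near 0 or with errors that left them short of the threshold. *Ckb* had a slope of -0.17 units per unit (SE 0.067, adjusted p = 0.300), with *r* = -0.383 (permutation p = 0.0226) and rho = -0.202 (permutation p = 0.245). *Gamt* had a slope of 0.14 (SE 0.068, adjusted p = 0.437), with *r* = 0.331 (permutation p = 0.0527) and rho = 0.359 (permutation p = 0.0351). Both had an unadjusted limma p under 0.05, at 0.0185 for *Ckb* and 0.0446 for *Gamt*, and both failed the adjustment over all probe sets. *Slc6a8* had a slope of 0.12 (SE 0.074, adjusted p = 0.627), *Gatm* of 0.06 (SE 0.057, adjusted p = 0.798), *Alpl* of 0.02 (SE 0.050, adjusted p = 0.939) and *Ckmt1* of -0.01 (SE 0.038, adjusted p = 0.970). The index accounted for 14.7% of the variance of *Ckb*, 10.9% of that of *Gamt*, 6.64% of that of *Slc6a8*, 2.97% of that of *Gatm*, 0.545% of that of *Alpl* and 0.171% of that of *Ckmt1*. Without BXD65 and BXD95, *r* of *Gatm* with the index went from 0.172 to 0.393. Its slope was then 0.16 (adjusted p = 0.319), still short of the threshold.

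**Figure D1:**
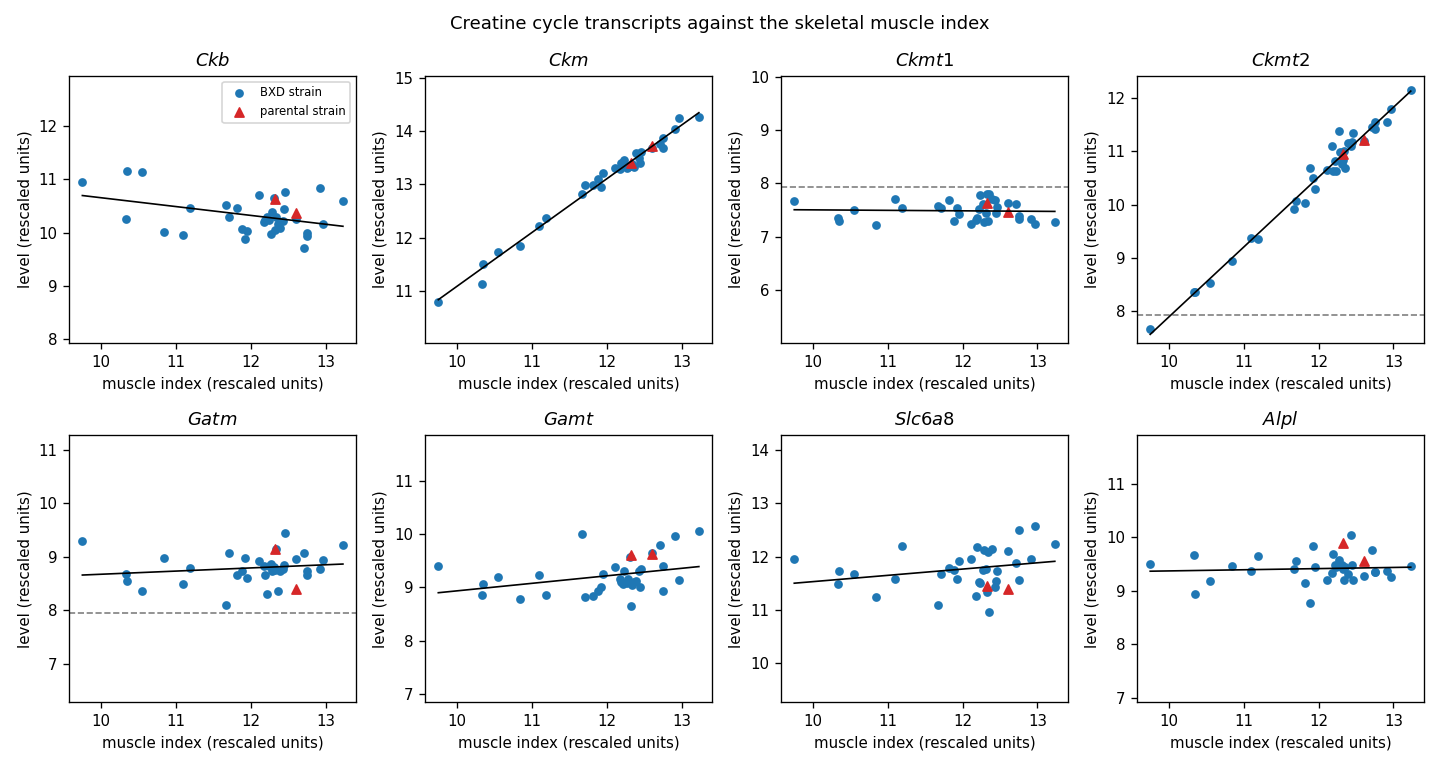
Level of each member (vertical axis, rescaled units, every panel spanning the same number of units) against the muscle index (horizontal axis, rescaled units). Blue points are the 35 BXD strains, red triangles the parental strains, the black line the limma slope through the mean and the dashed line, where it falls near the points, the background limit of 7.94 units. *Ckm* and *Ckmt2* lie along a line from BXD65 at the lower left to BXD97 at the upper right, while *Ckmt1* lies below the limit throughout.

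*Ckb* was highest in strains at the low end of the muscle index. It ranged from 9.71 units in BXD56 over a median of 10.25 to 11.16 in BXD85, and the next highest strains were BXD81 at 11.14 and BXD65 at 10.95. These 3 strains are among the 4 with the least muscle signal (BXD65, BXD95, BXD85 and BXD81), whereas BXD95, the other of the 4, had a *Ckb* level of 10.26, close to the median. Without those 4 strains the slope of *Ckb* on the muscle index was 0.07 (adjusted p = 0.898), so its negative sign rested on them.

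Genes that supply creatine or work next to the kinases were read from a list of 24, in which 3 rose with the muscle index and 0 fell. *Ak1*, the cytosolic adenylate kinase, rose by 0.28 units per unit (SE 0.037, adjusted p = 1.46e-06), and *Slc25a4*, the mitochondrial ATP/ADP exchanger of muscle and heart, by 0.23 (SE 0.027, adjusted p = 5e-08). *Slc16a12*, a creatine efflux transporter, rose by 0.23 (SE 0.052, adjusted p = 0.00695), though its mean of 7.06 units lies below the background limit. The list's median slope was -0.02. In contrast, the widely expressed exchanger *Slc25a5* had a slope of -0.07 (SE 0.027, adjusted p = 0.289). All 6 slow fibre genes rose with the index, *Myh7* by 1.22 units per unit (SE 0.069, adjusted p = 9.13e-17), so the muscle signal was not limited to fast fibre genes. In the lists of other cell types, *Des* of smooth and striated muscle and *Ccdc80* of the white adipocyte list rose as well, and *Pparg* of the adipocyte list fell by 0.12 (SE 0.026, adjusted p = 0.00452). Their part in the members' slopes was not tested.

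The brown adipocyte index was the mean of the 8 brown markers. It ran from 11.69 units in BXD97, the strain with the most muscle signal, over a median of 12.32 to 12.97 in BXD87. It held together less tightly than the muscle index, its genes correlating with the mean of the others at *r* between 0.128 for *Ebf2* and 0.738 for *Otop1*. The 2 indices correlated at *r* = -0.309 (permutation p = 0.0725) and rho = -0.427 (permutation p = 0.0111), so the muscle index was kept in the fit.

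Beside the muscle index, 1 of the 8 members passed the test on the brown adipocyte index, and it fell. *Slc6a8*, which carries creatine into cells, ranged from 10.96 units in BXD87 over a median of 11.75 to 12.58 in BXD83, and its lowest strain was the one with the highest brown adipocyte index. It fell by 0.84 units per unit of the index (SE 0.168, adjusted p = 0.00449), with *r* = -0.650 (permutation p = 3e-05) and rho = -0.609 (permutation p = 0.00016) once the muscle index was regressed out of both. Without BXD87 and BXD45, the 2 strains farthest from the median of the index after this regression, *r* was -0.549, and without the liver-rich BXD70 the adjusted p was 0.0128. It was 0.0417 without BXD87 and BXD97, the 2 strains farthest from the median of the index as measured. In the fit over all 35 strains 2.2% of all probe sets were called, 1.1% rising and 1.1% falling. The relation was not even across the brown markers. Beside muscle, *Slc6a8* correlated with *Otop1* at *r* = -0.771, with *Ucp1* at -0.677, with *Elovl3* at -0.603 and with *Dio2* at -0.453, but with *Kcnk3* at 0.041 and with *Ebf2* at 0.117. With general adipocyte genes in place of the brown adipocyte index, the slope of *Slc6a8* kept its sign but missed the threshold (adjusted p = 0.0849).

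*Alpl* had the opposite sign and fell just short. Its levels ran from 8.78 units in BXD103 over a median of 9.44 to 10.05 in BXD45, and its slope on the brown adipocyte index was 0.42 (SE 0.129, adjusted p = 0.0763), with *r* = 0.496 (permutation p = 0.00251) and rho = 0.466 (permutation p = 0.00489). Its correlation with the single brown markers was above 0 for all 8, from 0.213 for *Ebf2* to 0.531 for *Kcnk3*. The call depended on the setting, since *Alpl* passed in 5 of the alternatives. Its adjusted p was 0.0366 when the parents were included and 0.0381 without BXD87 and BXD97, the 2 strains farthest from the median of the index as measured. Among the settings in which it missed, the adjusted p was 0.145 with the mean of its probe sets and 0.119 without the muscle index in the fit. With the adipocyte list in place of the brown adipocyte index it was 0.493. The second *Alpl* probe set, with a mean of 8.33 units, correlated with the main one at *r* = 0.390 only, so the probe sets do not give 1 common order of strains.

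The kinases and the synthesis enzymes did not pass this test. *Ckb*, the kinase placed in the futile cycle, had a slope of -0.28 (SE 0.192, adjusted p = 0.533), and its correlation with the single markers beside muscle went from -0.510 for *Cidea* to 0.310 for *Dio2*. *Gatm* had a slope of -0.33 (SE 0.160, adjusted p = 0.321) and *Gamt* of -0.23 (SE 0.196, adjusted p = 0.637). Leaving out BXD70, its lowest strain, gave *Gatm* a slope of -0.22 (adjusted p = 0.524). Over all strains *Gatm* had *r* = -0.336 (permutation p = 0.0498) beside muscle, but rho = -0.142 (permutation p = 0.414). Without the liver-rich BXD70 the slope of *Gamt* was -0.42 (adjusted p = 0.228), and with the liver list as a covariate it was -0.46 (adjusted p = 0.197), so its size depended on that array but no call was made. *Ckm* and *Ckmt2* had slopes of -0.07 (SE 0.073, adjusted p = 0.727) and -0.17 (SE 0.103, adjusted p = 0.444). *Ckmt1* had a slope of 0.30 (SE 0.101, adjusted p = 0.112) from values within background. These errors leave room for slopes in either direction for *Ckb* and *Gamt*, and the fits do not show that these genes are unrelated to the brown program.

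**Figure D2:**
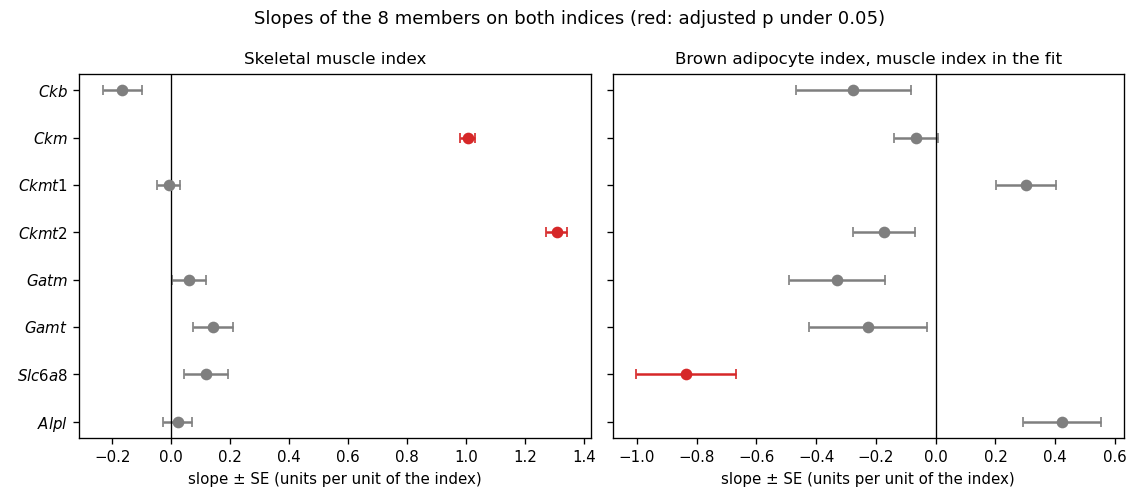
Slope of each member (horizontal axis, rescaled units per unit of the index, bars ± SE) on the muscle index at the left and on the brown adipocyte index with the muscle index in the fit at the right. Red points passed an adjusted p of 0.05: *Ckm* at 1.01 and *Ckmt2* at 1.31 at the left, and *Slc6a8* at -0.84 at the right.

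**Figure D3:**
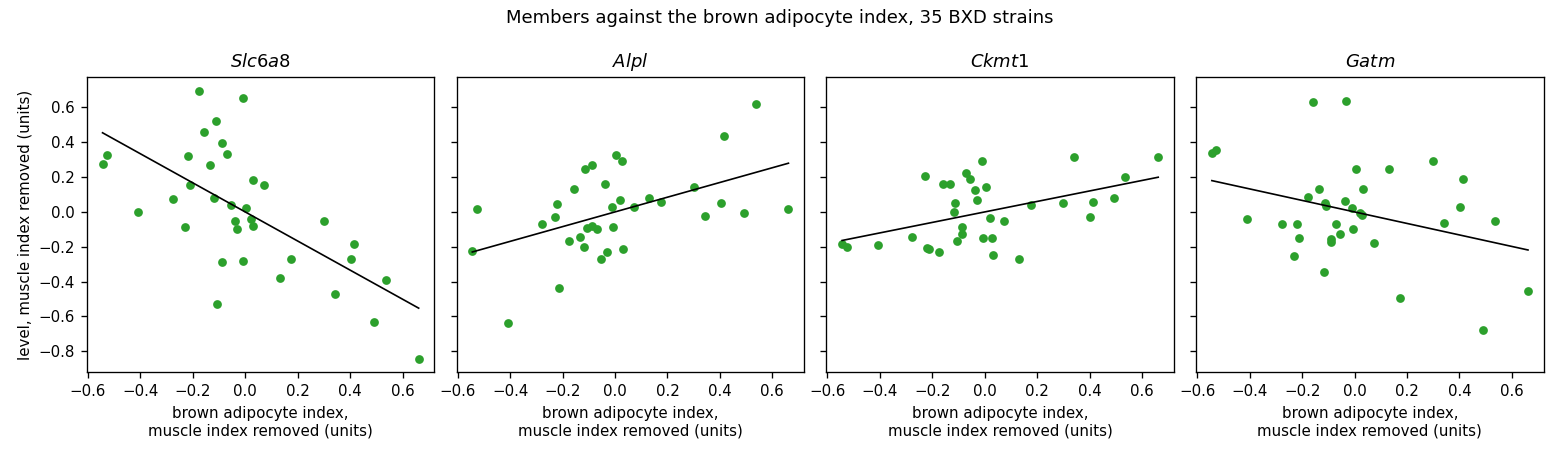
Level of *Slc6a8*, *Alpl*, *Ckmt1* and *Gatm*, the members with an unadjusted p under 0.05, with the muscle index regressed out (vertical axis, rescaled units), against the brown adipocyte index with the muscle index regressed out (horizontal axis, rescaled units). Each point is 1 of the 35 BXD strains and the line is the least squares slope, downward for *Slc6a8* and *Gatm* and upward for *Alpl* and *Ckmt1*, of which *Slc6a8* alone passed the adjusted threshold.

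In the list of creatine supply and coupling genes, 1 of 24 rose and 1 fell with the brown adipocyte index beside muscle. *Phospho1*, a phosphatase known from bone mineralization, where *Alpl* also acts, rose by 0.49 units per unit (SE 0.085, adjusted p = 0.00107). *Oat*, the ornithine aminotransferase that draws on the ornithine released when *Gatm* acts, had a slope of -0.46 (SE 0.079, adjusted p = 0.00107). The list's median slope was 0.08. Among other cell types, *Cidec* of the adipocyte list rose by 0.33 (SE 0.087, adjusted p = 0.0317), and *Esam* and *Tie1* of the endothelium list had slopes of -0.42 (SE 0.111, adjusted p = 0.0321) and -0.39 (SE 0.110, adjusted p = 0.0484). No gene of the white adipocyte list passed, with a median slope of -0.45 over its 6 genes. The part of these cell types in the fall of *Slc6a8* was not tested.

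The 28 pairs of members were then compared, and a pair was called where both of its limma fits passed the threshold. 1 pair was called, *Ckm* with *Ckmt2*, at *r* = 0.978 (permutation p = 1e-05) and an adjusted p of 2.86e-22. The other 27 pairs had *r* between -0.402 for *Ckb* with *Ckmt2* and 0.389 for *Gatm* with *Slc6a8*. The share of all probe sets that covaried with a member was 1.89% for *Ckm* and 1.99% for *Ckmt2*. It was 0.114% for *Ckb*, 0.289% for *Ckmt1*, 0.226% for *Gatm*, 0.085% for *Gamt*, 0.858% for *Slc6a8* and 0.569% for *Alpl*.

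Once the muscle index was in the fits, 0 of the 28 pairs were called by limma, with 5 at an unadjusted p under 0.05 in both fits, and 7 at an unadjusted permutation p under 0.05. *Ckm* and *Ckmt2* then correlated at *r* = -0.077 (permutation p = 0.657) and rho = -0.155 (permutation p = 0.371). The muscle index had left SDs of only 0.108 units for *Ckm* and 0.170 units for *Ckmt2*. With single arrays the part of array error in these SDs was not known. With slow fibre genes in place of the muscle index the pair of *Ckm* with *Ckmt2* was still called. The highest correlation left was that of *Ckb* with *Gamt*, *r* = 0.448 (permutation p = 0.00687, adjusted p = 0.401). *Gatm* and *Gamt*, which catalyse successive steps of creatine synthesis, correlated at *r* = 0.012 (permutation p = 0.945). *Ckb* and *Alpl*, the kinase and the phosphatase of the futile cycle, correlated at *r* = -0.349 (permutation p = 0.0403, adjusted p = 0.448). Beside muscle, 0% of all probe sets covaried with *Ckm* and 0% with *Ckmt2*, although 2533 and 2982 of them had an unadjusted p under 0.05. The shares were 0.406% for *Ckb*, 0.287% for *Ckmt1*, 0.197% for *Gatm*, 0.0146% for *Gamt*, 0.751% for *Slc6a8* and 0.875% for *Alpl*. *Gatm* and *Ckmt1* lie on the same chromosome, 2, with 28 protein-coding genes between them in RefSeq, and correlated at *r* = -0.146 as measured.

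**Figure D4:**
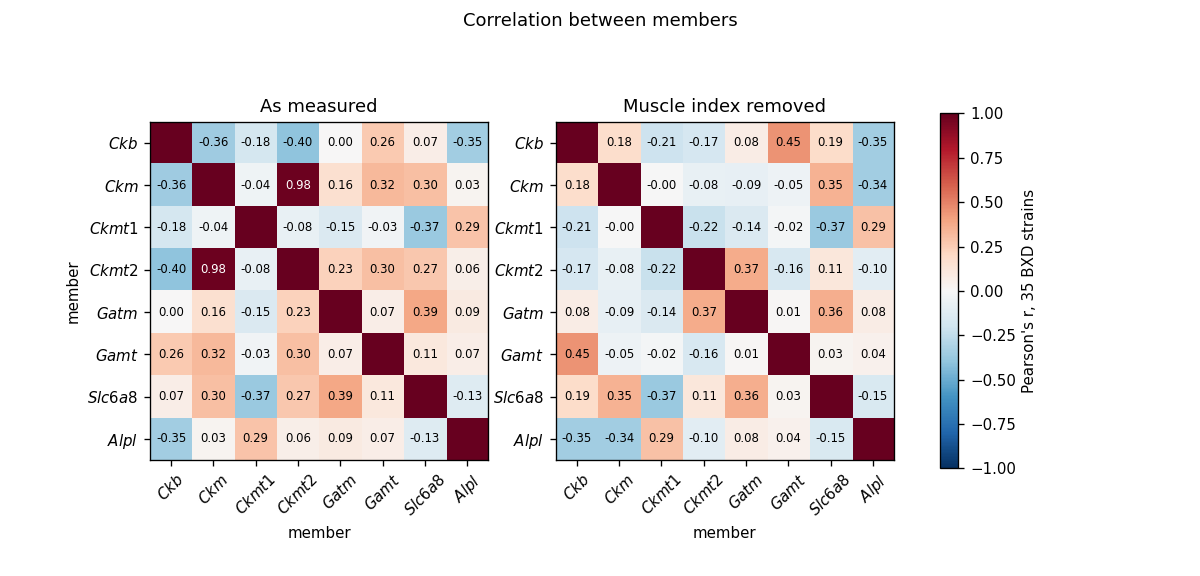
Pearson's *r* between members over the 35 BXD strains (colour scale from -1 to 1, value printed in each square, the diagonal being each gene with itself), as measured at the left and with the muscle index regressed out of both genes at the right. The square of *Ckm* with *Ckmt2* goes from 0.98 to -0.08, and the highest remaining value is 0.45 for *Ckb* with *Gamt*.

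The transcripts most like each member over the 35 strains give a description of its company, and no function is read from them. *Ckm* was most like *Pygm* (*r* = 0.990), *Acta1* (0.989) and *Myot* (0.988), and *Ckmt2* most like *Tmem38a* (0.991), *Xirp2* (0.987) and *Tmod4* (0.986), all of them genes of striated muscle. With the muscle index regressed out, the nearest transcripts of *Ckm* were *Map2k7* (0.681), *Rplp0* (0.625) and *Olfr811* (0.613), the last with a mean of 5.56 units, within background. Those of *Ckmt2* were *2010003O02Rik* (0.667), *Tubgcp3* (0.658) and *Eif3e* (0.652).

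*Ckb* had other neighbours. It was most like *Mmp12*, the macrophage elastase, at *r* = 0.765, *Tspan13* at 0.699 and *Igfbp7* at 0.697. Beside muscle, *Mmp12* (0.756) was followed by *Trem2*, a receptor of macrophages and microglia, at 0.724 and *Tm4sf19* at 0.721, the last with a mean of 7.86 units, below the background limit. *Slc6a8* was most like *Fermt2* (0.850), *Trip10* (0.808) and *Prrc1* (0.792), and beside muscle like *Fermt2* (0.845), *Ivns1abp* (0.816) and *Prkag2* (0.811), which encodes a regulatory subunit of AMP-activated kinase. *Alpl* was most like *1700037H04Rik* (0.776), *Parm1* (0.745) and *Hsbp1* (0.744), and beside muscle like *Atat1* (0.812), *1700037H04Rik* (0.811) and *Hsbp1* (0.770).

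For the synthesis enzymes the nearest transcripts differed from each other. *Gatm*, which makes guanidinoacetate, was most like *Ddr2* (0.706), *Emilin2* (0.705) and *Pf4* (0.702), and beside muscle like *Itgbl1* (0.717), *Ecm1* (0.717) and *Timp2* (0.713), several of which encode extracellular matrix proteins or their receptors. *Gamt*, which methylates guanidinoacetate to creatine, was most like *Masp1* (0.726), *Fads3* (0.682) and *Serpina3c* (0.677), and beside muscle like *Ube2c* (0.706), *Masp1* (0.685) and *Olfm1* (0.682). *Ckmt1*, within background, was most like *Mex3a* (0.726), *Mzf1* (0.706) and *E230028L10Rik* (0.703), and beside muscle like *Mex3a* (0.736), *Nkx6-2* (0.724) and *E230028L10Rik* (0.709).

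Markers of 11 other cell types and tissues were then each set beside the muscle index. Of the 88 slopes of members on these lists, 2 were called and 17 had an unadjusted limma p under 0.05. Over all probe sets, such a p was found for between 2022 of 41137 (slow fibre list) and 11141 of 41135 (kidney list). *Ckb* rose by 1.10 units per unit of the endothelium list (SE 0.320, adjusted p = 0.0452), in a fit that called 3.59% of all probe sets. This call was marginal: it was lost when any 1 of 18 of the 35 strains was left out, with adjusted p up to 0.119, and the slope stayed between 0.96 and 1.29 over all 35 such fits. It was also lost without the 2 strains farthest from the median of the list (slope 0.86, adjusted p = 0.298), without the 4 strains lowest in muscle signal (slope 0.89, adjusted p = 0.0987) and with arrays centred on the median (slope 1.12, adjusted p = 0.0545). *Ckmt1* rose by 0.97 units per unit of the kidney list (SE 0.248, adjusted p = 0.0138), but that list called 10.1% of all probe sets, only 4 of its 8 genes were above the background limit, and *Ckmt1* itself was not. The call was lost under quantile normalization (adjusted p = 0.0683) and with arrays centred on the median (adjusted p = 0.0754). The other lists called 3.37% of all probe sets (white adipocyte), 0.639% (liver), 0.389% (adipocyte), 0.226% (pancreas), 0.173% (lymphocyte), 0.102% (neuron and glia), 0.0219% (slow fibre), 0% (blood and neutrophil) and 0% (smooth muscle), and no member among them. For the last 2 lists 3621 and 3872 probe sets had an unadjusted p under 0.05. Some uncalled slopes had a smaller unadjusted limma p than *Ckb* on the endothelium list (0.00154). On the slow fibre list these were *Ckmt2* (slope 0.34, unadjusted p = 0.000263, adjusted p = 0.246) and *Gatm* (slope 0.50, unadjusted p = 0.000855, adjusted p = 0.424). On the adipocyte list it was *Slc6a8* (slope -3.09, unadjusted p = 0.0008, adjusted p = 0.0849).

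*Gatm* and *Gamt* showed their own extremes. *Gatm* ran from 8.10 units in BXD70 over a median of 8.78 to 9.45 in BXD61. *Gamt* ran from 8.64 in BXD62 over a median of 9.14 to 10.05 in BXD97, with BXD70 next at 9.99. BXD70, the liver-rich array, was thus lowest for the one and second highest for the other. The other liver-rich array, DBA/2J, also had high *Gamt*, at 9.62 above 30 of the 35 BXD strains, though C57BL/6J stood at 9.62 as well. *Gatm* was not low in DBA/2J, lying above 31 of the 35 BXD strains and higher than in C57BL/6J. On the liver list beside muscle, *Gatm* had a slope of -0.13 (SE 0.052, unadjusted limma p = 0.0214, adjusted p = 0.593). *Gamt* had one of 0.16 (SE 0.061, unadjusted limma p = 0.0153, adjusted p = 0.527). Both are among the 86 slopes that were not called, in a fit where 2838 of 41133 probe sets had an unadjusted p under 0.05. Among the BXD strains the liver list stood at 12.30 in BXD70 and next at 8.37 in BXD66, so BXD70 weighs heavily in both slopes. They were not fitted without it.

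Between the parents, with 1 array each, no difference could be tested. *Gatm* differed most among the members, at 8.40 units in C57BL/6J and 9.14 in DBA/2J, a difference of 0.74 that 5.48% of all probe sets exceeded. The liver list stood at 10.50 in DBA/2J and 7.62 in C57BL/6J, and its part in these differences was not tested. *Alpl* was at 9.57 in C57BL/6J and 9.90 in DBA/2J, and *Ckb* at 10.36 and 10.63. *Ckm* was lower in DBA/2J, at 13.40 against 13.72, and so was *Ckmt2*, at 10.95 against 11.21, as was the muscle index, at 12.33 against 12.61. *Slc6a8* was at 11.39 in C57BL/6J and 11.44 in DBA/2J, *Gamt* at 9.62 in both and *Ckmt1* at 7.47 and 7.62. For 5 of the 8 members the absolute difference was above 0.182 units, the median over all probe sets. The BXD strains went beyond both parents for every member, *Gatm* from 8.10 to 9.45 included. This sets the extremes of 35 single arrays against 2 single arrays, and the share of all probe sets that do the same was not counted.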

How the data were processed

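Brown adipose tissue RNA of 37 strain pools was hybridised to Affymetrix MoGene 2.0 arrays, and Affymetrix Expression Console is named in the submitters' processing notes. The authors deposited 1 table of 41345 probe sets whose values are scores, each array having a mean of 8 and an SD of 2 over all probe sets, a property read from the values. The summary method and log base are not given in the sources used here. The tests had been planned for log-like values and were run on the scores as deposited. The 190 array controls were left out, and no column of values was unused. Arrays correlated at *r* between 0.968 and 0.987, no pair of arrays was identical, and depth does not apply to arrays, whose number limits the precision.

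Columns were assigned to strains by name. Slopes were fitted with limma 3.58.1 (lmFit and eBayes) in R 4.3.3 over the 35 BXD strains, leaving out the genes of the index and adjusting by Benjamini-Hochberg over all probe sets, with a threshold of 0.05. A call on the score scale is a slope in rescaled units. Correlations used 100000 permutations (two-sided) and were computed for 8 members on each index and 28 pairs, with and without the muscle index. Permutations and descriptions were computed with numpy 2.4.6, pandas 2.3.3 and scipy 1.17.1 in Python 3.11.15, and plots with matplotlib 3.10.9. The fit was first tested on simulated data. The members, gene lists and tests were chosen with earlier results of these data known. The genes named are the members, the creatine supply and coupling genes that passed, and the 3 transcripts most like each member. *Slc25a5* and the genes of cell type lists were named after their values were seen. Of 6 blood genes, 4 were found by symbol. Promoters are from RefSeq. Alternatives were other scalings, probe set rules, filters, covariates and strains left out. The values of 1 gene of the cell type lists are not reported here.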

Additional observations from a re-analysis of the deposited data

How the results depend on the processing

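The count of members that followed the muscle index was 2 in every alternative run, and 2 with each strain left out in turn. The count on the brown adipocyte index beside muscle was 1 with each strain left out in turn. It was 2, *Alpl* being added, with both parents included, with probe sets above the background limit only, without the 2 strains farthest from the median, with the liver list as a covariate and with a mean of z-scores, and it was 0 with the adipocyte list in place of the brown adipocyte index. The count of covarying pairs was 1 in every alternative and with each strain left out. Beside muscle it was 0, with each strain left out as well, except that it was 1 with slow fibre genes in place of the muscle index. The adjusted p of *Slc6a8* on the brown adipocyte index lay between 0.00193 and 0.0261 with 1 strain left out, and that of *Alpl* between 0.0541 and 0.248. Alternatives without the 4 strains lowest in muscle signal, with slow fibre genes as a covariate and for the endothelium and kidney lists were chosen after seeing the data. The number of members with a range wider than the median of all probe sets was 7 as reported, 6 when probe sets of 1 gene were averaged and 5 with the muscle index regressed out, and the number with a parental difference above the median was 5 in every scaling. Of 935 alternatives for single genes, 889 kept their call and sign or stayed within 1 SD between strains, and no called slope changed sign. No paired analysis was possible because each strain has 1 array and the numbers only name strains. With 1 array per strain, array error and strain differences cannot be told apart, and *Ckmt1* was limited by background.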
